A study of Mus musculus with 6 samples.

Results

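Transcript levels of the subunits of the RNA polymerases and of the Mediator complex were compared between the brains of Dap12-ko and Dap12-het mice. The subunits were taken as every probe set (a group of short array probes aimed at 1 transcript) whose single gene symbol in the platform annotation begins with Polr1, Polr2 or Polr3, or is Med followed by digits. This rule gave 112 probe sets of 53 genes, among 18193 genes named by a single symbol and 45101 probe sets in all. RNA polymerase I was represented by 14 probe sets of 5 genes, RNA polymerase II by 15 probe sets of 11 genes, RNA polymerase III by 25 probe sets of 9 genes and Mediator by 58 probe sets of 28 genes. A further 3 probe sets carried several symbols of which 1 met the rule (Polr2l, Med20 and Polr2k, each with another gene), and these were not members.

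The study hybridised 6 samples of total RNA from mice 1 month old, each to 1 Affymetrix array. The Dap12-ko group held the samples named 67, 68 and Ko1, and the Dap12-het group held 75, 76 and 81. Dap12 is encoded by Tyrobp and is an adaptor that carries the signal of receptors on microglia, the immune cells of the brain. The series' design names the tissue as midbrain, with diencephalon and basal ganglia, and gives the groups as 3 knockout and 3 heterozygous mice, so the control animals also lacked 1 working copy. The source label describes every sample, heterozygous ones included, as Dap12-deficient, and the groups were taken from the titles. The sources used here do not give the kind of knockout allele, the strain or the sex, and a p-value covers only the variation among these 6 samples.

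Nuclear genes are copied into RNA by a trio of polymerases. RNA polymerase I makes the large ribosomal RNA precursor, RNA polymerase II makes messenger RNA, and RNA polymerase III makes transfer RNA, 5S ribosomal RNA and other short RNAs. Each has a pair of large subunits that form the active centre, a set of smaller subunits of which several are shared between the enzymes, and a stalk. Mediator is a large assembly of head, middle and tail modules, with a detachable kinase module, that connects transcription factors bound to DNA with RNA polymerase II. These genes are used in every cell type of the brain, so in bulk tissue a change in the cells present and a change in RNA per cell cannot be told apart.

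The arrays of the groups differed before any gene was considered. The Tyrobp signal was 2.277 on knockout 67, 23.67 on 68 and 12.89 on Ko1, and 70.67, 68.19 and 77.6 on the heterozygous arrays, a log2 change of -1.68 ± 0.33 (SE; limma adjusted p = 0.0439), with every knockout array below every heterozygous array. Where its probes lie relative to the disrupted part of the gene is not known. Arrays correlated with each other at 0.968 to 0.982 within the heterozygous group and at 0.887 to 0.912 within the knockout group. Between the groups the correlations were 0.891 to 0.954, a range that overlapped that within the knockout group and reached above it. All 18 probe sets of the hybridisation spikes, bacterial and phage RNAs added in fixed amounts, were higher on every knockout array. Their medians were 1370 to 3100 against 356 to 376. Of 27 probe sets for polyadenylated spikes (dap, lys, phe, thr, trp), 25 were also higher on every knockout array. The ratio of 3′ to 5′ signal of Gapdh, a measure of RNA integrity, was 0.702 to 1.21 on the knockout and 0.997 to 1.42 on the heterozygous arrays, and that of actin was 1.76 to 2.33 and 1.59 to 2.12. The summed signal of the marker lists was higher on every knockout array for 7 oligodendrocyte genes (24306 to 61948 against 17767 to 18492), 8 neuronal genes (17249 to 22007 against 14375 to 15092), 9 microglial genes (2539 to 2871 against 1769 to 2157), 8 astrocyte genes (14053 to 14981 against 10934 to 13480) and 5 blood cell genes (113 to 197 against 75 to 108, with Hba-a1 at a mean of 6.99), and overlapped for 5 endothelial genes (277 to 446 against 340 to 360). Of their tested probe sets, 6 of 19 for oligodendrocytes and 4 of 19 for neurons passed the limma test, all higher. None passed in the other lists. Over all probe sets tested, 20.9% had an unadjusted p under 0.05. Those lists had it in 4 of 13 (microglia), 9 of 25 (astrocytes), 1 of 2 (blood cells) and 0 of 7 (endothelium). The part of these differences in the results on polymerase and Mediator genes was not tested.

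For orientation, the promoters of both genes with a probe set that passed the test are given as the 250 bases before the transcription start in RefSeq (mouse assembly GRCm38.p6), both on the minus strand, Polr2a at chr11:69758634-69758883 and Polr2e at chr10:80039660-80039909. Capitals mark matches to the GC box GGGCGG or its reverse complement and to the TATA box core TATAAA.
Polr2a: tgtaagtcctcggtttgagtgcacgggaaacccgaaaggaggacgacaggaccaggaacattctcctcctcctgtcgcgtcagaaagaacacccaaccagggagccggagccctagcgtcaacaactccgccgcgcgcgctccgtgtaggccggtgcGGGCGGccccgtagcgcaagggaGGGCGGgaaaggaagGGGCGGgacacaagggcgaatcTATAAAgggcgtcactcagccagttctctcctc
Polr2e: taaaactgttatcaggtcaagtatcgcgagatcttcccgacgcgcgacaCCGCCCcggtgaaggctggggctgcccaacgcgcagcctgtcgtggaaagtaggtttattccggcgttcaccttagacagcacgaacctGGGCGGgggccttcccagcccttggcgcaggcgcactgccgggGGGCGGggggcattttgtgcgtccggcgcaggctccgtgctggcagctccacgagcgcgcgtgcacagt
The Polr2a promoter held 3 GC boxes and a TATAAA, which began 33 bases before the start, and the Polr2e promoter held 3 GC boxes and no TATAAA on either strand. Of the 53 member genes, 45 matched an entry, with 51 promoters in all. Searched on both strands, GGGCGG was present in 58.8% of these 51 promoters against 32.7% of all 32851 in the table, and the ETS core CCGGAAG in 21.6% against 6.91%. The TATA box core was present in 9.8% against 12.4%, and CCAAT in 35.3% against 33.8%. These are matches of letters and not binding sites.

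The first question was how many of the subunits differed between the groups. Of the 112 member probe sets, 80 were bright enough to be tested (a mean of log2(signal + 16) over the 6 arrays above 5.33, the median of the array), and they covered 52 of the 53 genes. A probe set of Polr2a, the catalytic subunit of RNA polymerase II, fell, and a probe set of Polr2e, a small subunit common to the polymerases, rose. The other 78 did not pass the test, with a lowest adjusted p of 0.0915 (limma, Benjamini-Hochberg over all 22518 probe sets tested, threshold 0.05). Over these 22518 probe sets 1.24% rose and 0.733% fell, so 1 in each direction among 80 is near the background. Counts and shares given below for the array cover only the probe sets tested. The probe set that rose had passed the filter on level only through the knockout arrays, where it was high.

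The members' log2 changes (knockout minus heterozygous) had a median of -0.03, against 0.002 over all probe sets tested, with 39 above and 40 below 0. They ran from -2.08 to 1.68, and 60 of 80 lay within 0.5 of 0, against 69% of all probe sets. On 9 of the 80 the signals of all knockout arrays lay above those of all heterozygous arrays, against 14.9% of all probe sets tested. On 13 they lay below, against 12.5%. On the other 58 the groups overlapped. An unadjusted p under 0.05 was reached by 15 of the 80 (18.8%), against 20.9% of all probe sets tested. Both probe sets that passed lie beyond the 5th and 95th percentiles of all probe sets tested in the plot of all members.

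**Figure D1:**
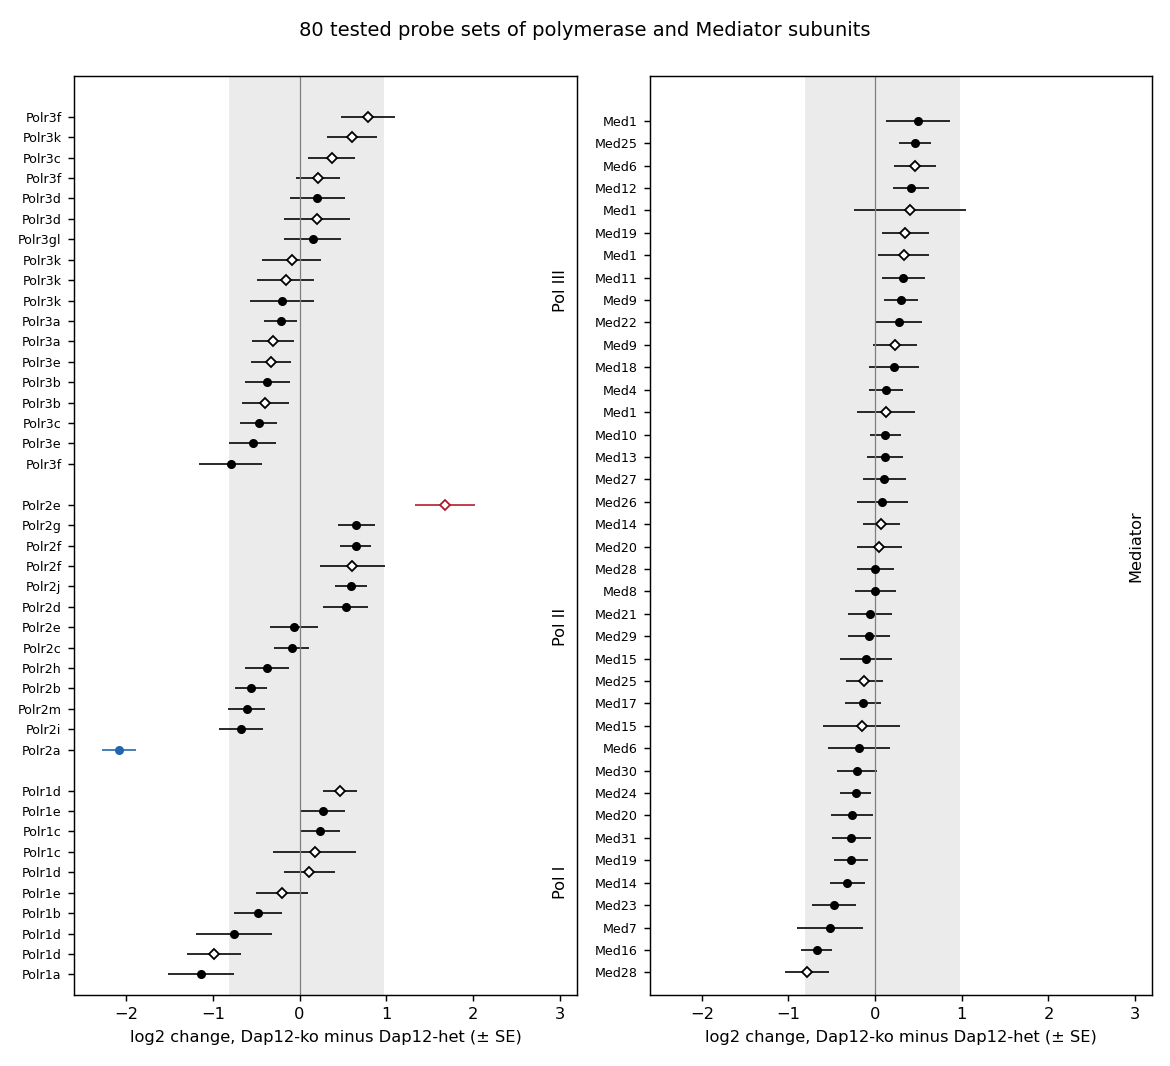
Log2 change (Dap12-ko minus Dap12-het, of log2(signal + 16), bars are ± SE from limma, n = 3 arrays per group) of the 80 tested probe sets, grouped by complex; filled circles are the brightest tested probe set of each gene and open diamonds its others. The grey band spans the 5th to 95th percentile of all probe sets tested (-0.797 to 0.965), blue marks the probe set that fell (Polr2a, -2.08) and red the one that rose (Polr2e, 1.68).

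RNA polymerase II showed the widest scatter among its own subunits. Of its 13 tested probe sets, 4 lay wholly above and 4 wholly below the heterozygous arrays (30.8% each, against 14.9% and 12.5% of the array), 5 overlapped, and only 3 had a log2 change within 0.5 of 0. In 8 of the 13 the unadjusted p was under 0.05 (61.5%, against 20.9% of the array). After adjustment 1 was higher and 1 lower, where the array had 1.24% and 0.733%, and 11 did not pass. The median change of the 13 was -0.06. Polr2e 1451093_at is among the 4 above and the 8, and is the 1 higher. It had passed the filter on level only through the knockout arrays, as had Polr2f 1427402_at, whose groups overlapped.

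Polr2a encodes the largest subunit, which holds the active site and carries the long repeated C-terminal domain that is phosphorylated as transcription proceeds. Its bright probe set (1426242_at) read 100.5 on knockout 67, 77.24 on 68 and 87.83 on Ko1 (mean 88.5 ± 11.6, SD, n = 3). The heterozygous arrays 75, 76 and 81 gave 483.8, 390.9 and 403.1 (426 ± 50.5, SD, n = 3). The groups were far apart, the lowest heterozygous signal being well above the highest knockout signal, and the heterozygous mean was 4.81 times the knockout mean. On the log2 scale it fell by 2.08 ± 0.20 (SE; limma adjusted p = 0.0132). A two-sided exact permutation test gave p = 0.1, which 3 against 3 arrays cannot go below. No decrease among the probe sets tested had a smaller p. Among the 4231 probe sets with a heterozygous mean between 200 and 500, as that of Polr2a, 71 fell (1.68%) and 13 rose.

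A second probe set of Polr2a (1422311_a_at) was too dim to be tested. It gave 8.218, 3.827 and 3.816 on the knockout arrays and 27.76, 12.73 and 20.26 on the heterozygous arrays. All knockout signals were again below all heterozygous ones, with a difference of -0.75 on the log2(signal + 16) scale (exact permutation p = 0.1, the floor of this design). It was the single untested member probe set of 32 in which the knockout arrays lay below, and in 3 they lay above. The shares over all untested probe sets are not given here.

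Whether Polr2a passed depended on which arrays were used. Its change stayed between -2.48 and -1.68 under all 19 alternative treatments of the data, and it passed in 15 of them. It did not pass without knockout 67 (-2.16, adjusted p = 0.0553), without knockout 68 (-2.0, 0.0952), without heterozygous 75 (-1.99, 0.125) or without heterozygous 81 (-2.12, 0.0959). It passed without knockout Ko1 (-2.08, 0.00063) and without heterozygous 76 (-2.14, 0.0457). It also passed with 4 arrays, without knockout 67 and 68 (adjusted p = 0.0249) and without knockout Ko1 and heterozygous 81 (0.00137). In the fits without knockout 67, knockout 68, heterozygous 75 or heterozygous 81, none of the probe sets tested passed limma's adjusted threshold. In turn, 3926, 3566, 2846 and 3207 of them had an unadjusted p under 0.05.

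Polr2b encodes the second-largest subunit, which forms the other side of the active-site cleft. It gave 329.1, 438.9 and 357.6 on the knockout arrays (375 ± 56.9, SD, n = 3) and 614.9, 533.7 and 527 on the heterozygous arrays (559 ± 48.9, SD, n = 3). The groups did not overlap and the knockout arrays were lower, but the change of -0.56 ± 0.19 did not pass (limma adjusted p = 0.141). Its size was far below that of Polr2a, its partner in the active centre.

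Polr2e, Polr2f and Polr2h are small subunits common to all nuclear polymerases, and their probe sets did not share a direction. The Polr2e probe set that rose (1451093_at) gave 142.3, 115.2 and 53.29 on the knockout arrays (67, 68, Ko1) and 17.81, 26.7 and 14.39 on the heterozygous arrays (75, 76, 81). Every knockout signal was above every heterozygous one, with knockout Ko1 closest to the heterozygous range. The change was 1.68 ± 0.34 (SE; limma adjusted p = 0.0491), and the two-sided exact permutation test again gave its floor of p = 0.1. The heterozygous signals were dim, and the probe set passed the filter on level only through the knockout arrays. The probes of a brighter Polr2e probe set (1417138_s_at) may match other transcripts too. That probe set gave 266.3, 229.6 and 470.9 on the knockout arrays and 324, 281.9 and 363.7 on the heterozygous arrays, and the groups overlapped. Its change was -0.06 ± 0.27 (adjusted p = 0.92), so the rise was seen on 1 of the 2 tested probe sets of the gene. Another (1458326_at) was dim in both groups, at 13.47, 2.902 and 7.299 against 3.504, 5.151 and 4.385.

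The rise of Polr2e was close to the threshold. Of the 16 alternatives that could give a value it passed in 3, with array weights (1.84, adjusted p = 0.00208), without knockout Ko1 (2.03, 0.00228) and without both knockout Ko1 and heterozygous 81 (1.92, 0.0043). In the other 13 its change lay on the same side of 0 and its adjusted p was between 0.0501 and 0.216. The 13 include quantile normalization (1.48, 0.0818), which removes differences in the overall distribution of signals.

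**Figure D2:**
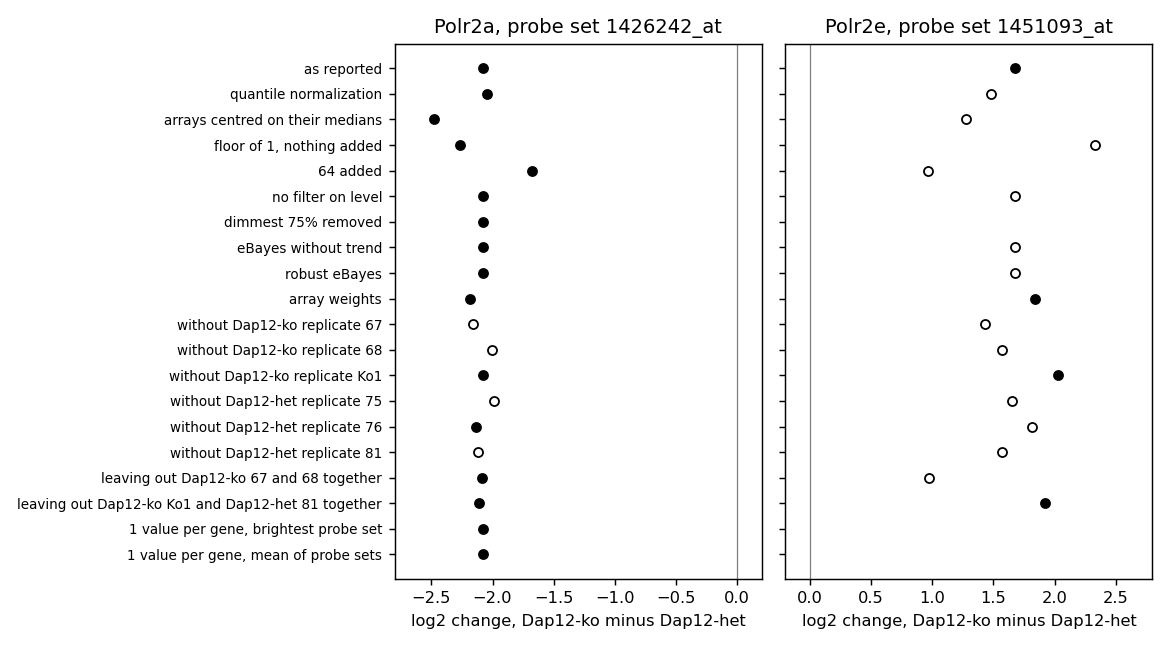
Log2 change (Dap12-ko minus Dap12-het) of the Polr2a and Polr2e probe sets that passed the test, as reported and under each alternative treatment of the data (1 point each); filled points have an adjusted p under 0.05 and a missing point means that the probe set was not in that fit. Polr2a stays between -2.48 and -1.68 and passes in 15 of 19 alternatives, and Polr2e between 0.966 and 2.33 and passes in 3 of 16.

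Polr2f gave 625.1, 656.3 and 496.3 on the knockout arrays (593 ± 84.8, SD, n = 3) and 343.2, 387.1 and 382 on the heterozygous arrays (371 ± 24, SD, n = 3) on its bright probe set. The knockout arrays were all higher, but the change of 0.65 ± 0.18 did not pass (limma adjusted p = 0.103). A dim Polr2f probe set had a change of 0.61 ± 0.38 (adjusted p = 0.393), with overlapping groups. Polr2h lay the other way, at 152.9, 145.1 and 82.42 against 153.1, 153.5 and 186.4. Its groups almost touched, and the change of -0.37 ± 0.25 was within the spread of the arrays (adjusted p = 0.439).

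Among the subunits particular to RNA polymerase II, Polr2j, which pairs with Polr2c early in assembly, gave 361.3, 414.4 and 337.9 on the knockout arrays and 233.1, 227.6 and 260.2 on the heterozygous arrays. All knockout signals were higher, with a change of 0.59 ± 0.18 (limma adjusted p = 0.119). Its partner Polr2c overlapped between the groups, at 317.6, 446.4 and 329.1 against 424.3, 346.4 and 386 (-0.09 ± 0.20, adjusted p = 0.835). The stalk subunit Polr2g gave 930.7, 1311 and 837.1 against 680, 565.9 and 658.5, again with every knockout array higher (0.66 ± 0.21, adjusted p = 0.129). Polr2d, its partner in the stalk, gave 262.8, 277.3 and 145 against 151.9, 148.2 and 141.4. Knockout 67 and 68 were high there and knockout Ko1 was within the heterozygous range (0.53 ± 0.26, adjusted p = 0.278).

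Polr2m, which encodes Gdown1, a protein that binds RNA polymerase II and makes it depend on Mediator, gave 545.7, 619 and 758.6 on the knockout arrays and 1140, 1055 and 778 on the heterozygous arrays. The groups were separated, but only by the small gap between knockout Ko1 and heterozygous 81, and the change of -0.61 ± 0.21 did not pass (limma adjusted p = 0.152). Polr2i, a small subunit that takes part in start-site choice and proofreading, gave 178.6, 230.4 and 347.5 against 435, 342.2 and 423.5. Knockout Ko1 reached the heterozygous range and the groups overlapped (-0.68 ± 0.26, adjusted p = 0.181). Polr2i lies close to the targeted gene on chromosome 7, with 7 protein-coding genes between it and Tyrobp. Med29, Med25 and Polr3e are on the same chromosome with 68, 239 and 1023 protein-coding genes between.

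Under quantile normalization 9 of the 80 members changed sign, among them Polr2c and the bright Polr2e probe set, which turned to 0.04 and 0.05. Centring each array on its median lowered every change by about the same amount, to a median of -0.40 over all probe sets tested. The 25 members with the smallest positive changes then turned below 0.

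**Figure D3:**
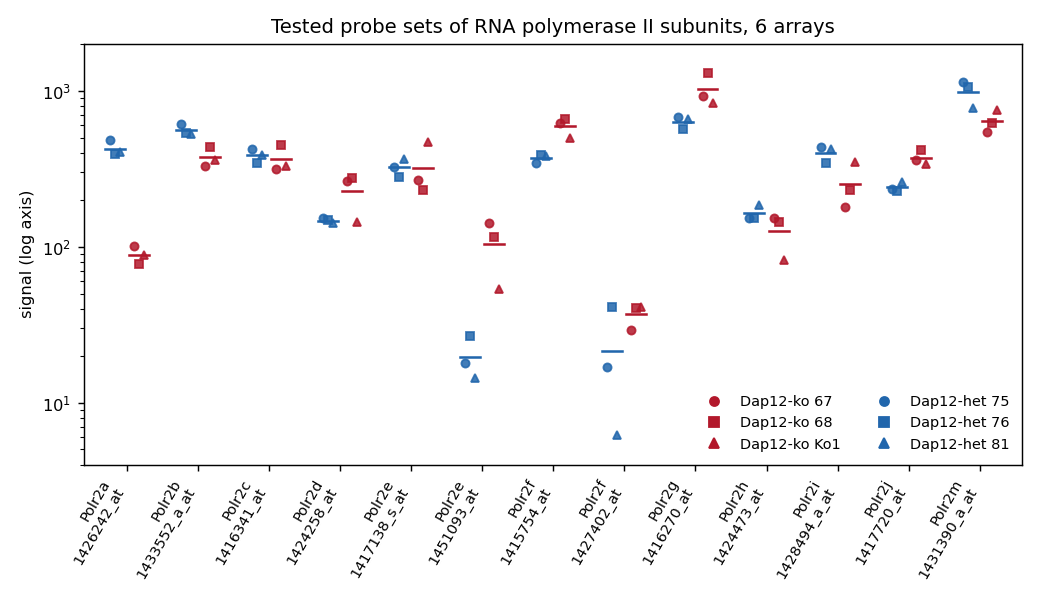
Deposited signal (log axis) of the 13 tested RNA polymerase II probe sets on each of the 6 arrays; red marks Dap12-ko, blue Dap12-het, symbols the array and bars the group mean. Polr2a is separated by the widest gap with the knockout arrays low, Polr2e 1451093_at with them high, and the other subunits lie on either side with smaller gaps or overlap.

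In RNA polymerase I no probe set passed the test. Its 10 tested probe sets had changes from -1.14 to 0.47 with a median of -0.04, 1 lay wholly above and 2 wholly below the heterozygous arrays (10% and 20%, against 14.9% and 12.5% of the array), and 3 had an unadjusted p under 0.05 (30%, against 20.9%). The largest subunit, Polr1a, gave 34.36, 5.079 and 5.828 on the knockout arrays and 40.41, 53.29 and 46.81 on the heterozygous arrays (1417775_at). All knockout signals were lower, with knockout 67 near the heterozygous range (-1.14 ± 0.38, limma adjusted p = 0.144), and 4 other Polr1a probe sets were too dim to test. Polr1b, the second-largest subunit, gave 22.33, 45.17 and 25.25 against 57.48, 48.14 and 39.63, with overlapping groups (-0.48 ± 0.28, adjusted p = 0.368).

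Polr1d, an assembly subunit shared by RNA polymerases I and III, had 4 tested probe sets that pointed in different directions. One (1448287_at) gave 168.6, 243.5 and 445.7 against 580.4, 545.8 and 501.2, wholly below, with a change of -0.99 ± 0.31 (limma adjusted p = 0.127). Another (1451120_at) gave 373.7, 433.1 and 321 against 274.3, 232.5 and 293.3, wholly above, with a change of 0.47 ± 0.20 (adjusted p = 0.222). The brightest (1447320_x_at), whose probes may match other transcripts too, had 146, 311.5 and 618 against 420.2, 521.2 and 674.5 with overlapping groups (-0.76 ± 0.44, adjusted p = 0.363). The remaining one changed by 0.11 (adjusted p = 0.86). Polr1c, the partner of Polr1d, had changes of 0.24 and 0.17, and Polr1e, which is particular to RNA polymerase I, of 0.27 and -0.20, all with overlapping groups and all adjusted p at 0.577 or above.

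In RNA polymerase III none of the 18 tested probe sets passed, none lay wholly above the heterozygous arrays and 2 lay wholly below (11.1%, against 14.9% of the array above and 12.5% below). Their changes ran from -0.80 to 0.79 with a median of -0.18, and 1 had an unadjusted p under 0.05 (5.56%, against 20.9% of the array). The large subunit Polr3a gave 85.95, 77.37 and 93.22 against 101.2, 100.3 and 103.7, wholly below by a small margin (-0.22 ± 0.19, limma adjusted p = 0.558). The other large subunit, Polr3b, had changes of -0.37 and -0.40 on its tested probe sets, with overlapping groups.

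Polr3c, Polr3f and Polr3g, or its paralog Polr3gl, form a trio of subunits that acts in initiation. Polr3c (1453256_at) gave 55.67, 67.38 and 63.62 on the knockout arrays (62.2 ± 5.98, SD, n = 3) and 101.3, 103.5 and 74.6 on the heterozygous arrays (93.1 ± 16.1, SD, n = 3). The groups did not overlap, and the change was -0.47 ± 0.22 (limma adjusted p = 0.258), while a second Polr3c probe set changed by 0.37. The brightest Polr3f probe set gave 44.72, 49.01 and 128 against 128.5, 168.7 and 95.36, with knockout Ko1 within the heterozygous range (-0.80 ± 0.36, adjusted p = 0.251). A dim Polr3f probe set went the other way, at 56.53, 61.41 and 34.89 against 15.65, 36.57 and 17.19 (0.79 ± 0.31, adjusted p = 0.199), and had passed the filter only through the knockout arrays. Polr3gl changed by 0.15, and Polr3g, the only member gene with no tested probe set, had signals of 4.043 to 39.08 over the 6 arrays.

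Polr3d and Polr3e form a pair next to the active centre. Polr3e gave 129.8, 112.8 and 214.3 against 235.7, 263 and 174.2 on its brightest probe set, with knockout Ko1 above heterozygous 81 (-0.54 ± 0.27, limma adjusted p = 0.294), and -0.33 on the other. Polr3d changed by 0.21 and 0.20. Polr3k, a small subunit needed for termination, had 4 tested probe sets with changes of -0.20, -0.16, -0.09 and 0.61, all with overlapping groups.

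In Mediator none of the 39 tested probe sets of 28 genes passed the test. Their changes ran from -0.78 to 0.50 with a median of 0.05, 36 of 39 lay within 0.5 of 0, and 3 had an unadjusted p under 0.05 (7.69%, against 20.9% of the array). The groups overlapped in 30, with the knockout arrays wholly above in 4 and wholly below in 5. The share that did not overlap, 10.3% above and 12.8% below, is near that of the array.

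The subunit with the smallest p in Mediator was Med16 of the tail, where many activators bind. It gave 228.3, 232.1 and 245.2 on the knockout arrays (235 ± 8.87, SD, n = 3) and 372.5, 345.9 and 442.7 on the heterozygous arrays (387 ± 50, SD, n = 3). The groups were well apart with the knockout arrays lower, and the change of -0.68 ± 0.18 stayed above the threshold (limma adjusted p = 0.0915). Med23 and Med24, neighbours of Med16 in the tail, also had all knockout arrays below all heterozygous ones. Med23 gave 97.04, 74.14 and 89.74 against 108.4, 101.5 and 180.3 (-0.47 ± 0.25, adjusted p = 0.327), and Med24 gave 167, 152.3 and 150.8 against 191.1, 186.2 and 179 (-0.22). Med25, an activator-binding subunit, lay the other way, at 186, 171.1 and 156.2 against 111.8, 125.8 and 121.4 (0.46 ± 0.19, adjusted p = 0.206), with -0.13 on its other probe set. Med15, also of the tail, changed by -0.11 and -0.16 with overlapping groups.

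In the kinase module, Med12 gave 129.6, 106.5 and 92.18 on the knockout arrays and 80.58, 76.79 and 75.87 on the heterozygous arrays. All knockout arrays were higher, with a change of 0.41 ± 0.21 that did not pass (limma adjusted p = 0.297), and Med13, which joins the module to the core, changed by 0.12.

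Of the middle module, Med1, which binds nuclear receptors, had 4 tested probe sets with changes from 0.13 to 0.50 and overlapping groups in each. Med9 gave 100.8, 106.8 and 116.5 against 83.4, 94.33 and 78.08 on its brightest probe set, all knockout arrays higher (0.29 ± 0.20, limma adjusted p = 0.428), and 0.23 on the other. Med7 gave 87.14, 90.6 and 273.6 against 211, 204.7 and 171.6. Knockout 67 and 68 were low there and knockout Ko1 was the highest array of all (-0.52 ± 0.38, adjusted p = 0.472). Med10 changed by 0.12, and Med14, the backbone that joins the modules, by -0.32 and 0.07.

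In the head module, which contacts the polymerase, Med17 changed by -0.15 and Med8 by 0.00, and Med6 had a change of -0.19 on its brightest probe set and of 0.46 on another (44.61, 58.87 and 49.67 against 35.69, 27.87 and 34.55, limma adjusted p = 0.31). Med19, near the hook between modules, gave 106.4, 128.4 and 147 against 158.6, 151.2 and 158.6 on its brightest probe set, wholly below (-0.27 ± 0.20, adjusted p = 0.464), and 0.35 on the other. Med28 was the brightest Mediator subunit by its brightest probe set, at 568.2, 605 and 855.8 against 715.6, 559.5 and 734.2, with a change of 0.001 ± 0.215. Its dimmer probe set gave 68.53, 92.26 and 95.25 against 190.6, 182.6 and 110.3, wholly below, with a change of -0.78 ± 0.25 (adjusted p = 0.134). Signals of different probe sets are not on a common scale, so their order is not an order of transcript levels.

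**Figure D4:**
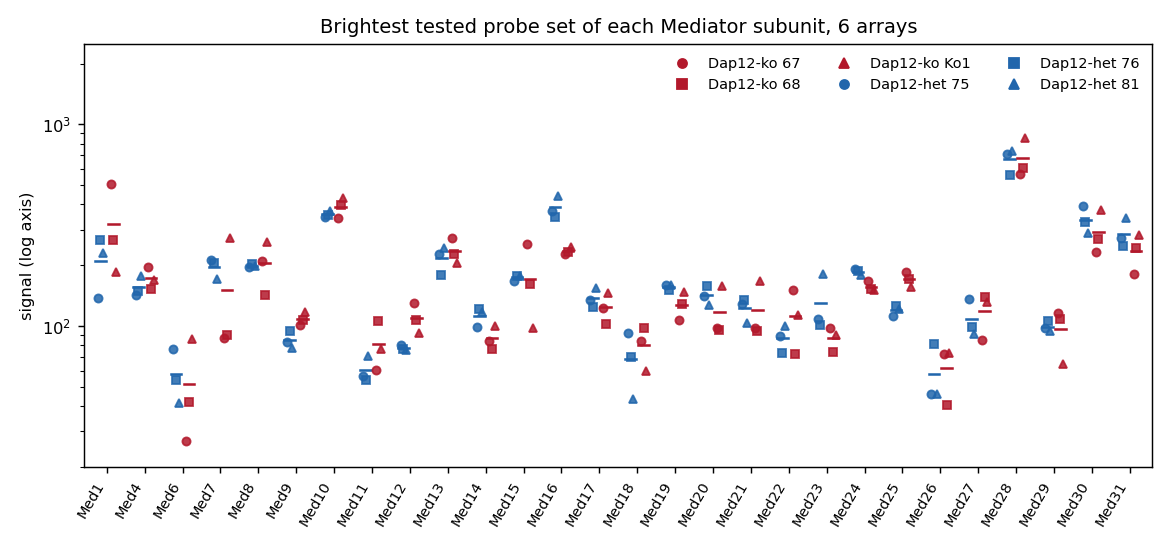
Deposited signal (log axis) of the brightest tested probe set of each of the 28 Mediator genes on each of the 6 arrays; red marks Dap12-ko, blue Dap12-het, symbols the array and bars the group mean. Med16 shows the clearest gap, with knockout arrays at 228.3 to 245.2 and heterozygous arrays at 345.9 to 442.7, and in 21 of the 28 the groups overlap.

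Different probe sets of the same gene often gave different answers. Of the 21 genes with at least 2 tested probe sets, 12 had changes of opposite sign, 1 of them Med28 with a positive change of only 0.001. The difference between the highest and the lowest change of a gene had a median of 0.39. It was 1.74 for Polr2e, 1.58 for Polr3f and 1.46 for Polr1d, and at the other end 0.006 for Polr3d, 0.023 for Polr3b and 0.037 for Polr2f. In none of the 21 did probe sets reach an adjusted p under 0.1 in opposite directions. Only Polr2e 1451093_at among their probe sets reached that level at all, so this says nothing about their agreement. With 1 probe set per gene, the brightest, 21 of 52 genes had a change above 0 and 30 below, with a median of -0.10. Polr2a was then the only member that passed.

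**Figure D5:**
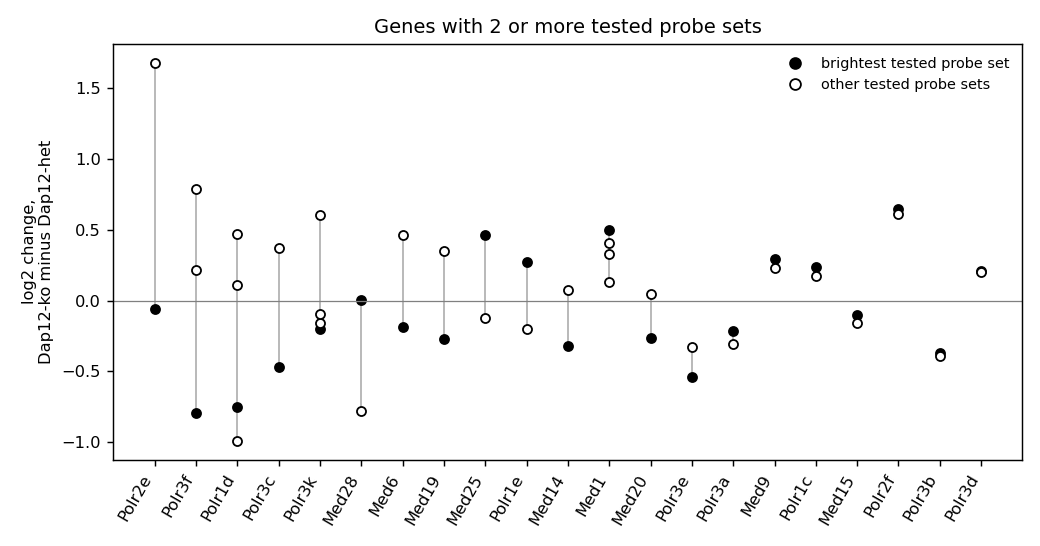
Log2 change (Dap12-ko minus Dap12-het) of every tested probe set of the 21 genes with 2 or more, ordered by the difference between the highest and the lowest change; filled points are the brightest probe set of the gene, open points the others, and a line joins those of 1 gene. Polr2e spans 1.74 and Polr3d 0.006.

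The 32 probe sets that were not tested belong to 18 genes and had group means between 1.7 and 35.4. The share of all untested probe sets in which the groups did not overlap is not given here, so the members cannot be set against it. In 3 of the 32 all knockout arrays were above all heterozygous arrays. These were Med1 1450402_at (49.81, 40.05 and 16.42 against 6.967, 8.315 and 2.897), Med17 1451719_at (21.84, 15.73 and 11.04 against 5.657, 5.416 and 0.6675) and Med6 1439737_x_at (25.28, 23.51 and 16.99 against 5.756, 5.289 and 3.01). The median signal of the whole array was also higher on the knockout arrays, at 40.41, 35.78 and 24.68 against 20.34, 21.98 and 21.35, and its part in these dim probe sets was not tested. Of the tested probe sets, 3 (Polr2e 1451093_at, Polr2f 1427402_at and Polr3f 1451773_s_at) would not have passed the filter on the heterozygous arrays alone.

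Genes that work with the polymerases were read from 6 lists with 141 genes, of which 120 had a tested probe set. The list of factors of RNA polymerases I and III includes Znrd1, Twistnb, Cd3eap and Crcp, polymerase subunit genes whose symbols fall outside the rule. Of the 197 tested probe sets of the 6 lists, 2 rose (1.02%) and 1 fell (0.508%), near the shares of the array. The median change of the 197 was -0.05. The 3 were in the elongation list and in the list of assembly factors and enzymes of the C-terminal domain. Rprd1a, which binds the C-terminal domain of Polr2a, gave 145.7, 148 and 101.6 on the knockout arrays and 22.46, 20.06 and 24.31 on the heterozygous arrays, and rose by 1.93 ± 0.23 (limma adjusted p = 0.0171). That probe set passed the filter only through the knockout arrays, and a brighter one of Rprd1a gave 887.1, 592.2 and 1211 against 1286, 891.4 and 1152 (-0.35 ± 0.27, adjusted p = 0.502). Scaf1, which also binds the C-terminal domain, gave 112.8, 93.92 and 41.14 against 358.1, 342.9 and 316.9, and fell by 1.93 ± 0.30 (adjusted p = 0.0287). Ctr9, a subunit of the PAF1 elongation complex, gave 143.6, 120 and 97.27 against 31.5, 47.82 and 39.02 on 1 probe set, which rose by 1.29 ± 0.24 (adjusted p = 0.0391). Its brightest probe set gave 211.8, 272.1 and 217.4 against 225.1, 304 and 295.1 (-0.22 ± 0.20, adjusted p = 0.585).

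None of the 45 probe sets of the general factors of RNA polymerase II passed (median change 0.01), nor any of the 38 of the factors of RNA polymerases I and III (-0.002), the 8 of the Mediator kinases and paralogs (-0.09) or the 27 of the Integrator complex (-0.14). An unadjusted p under 0.05 was reached by 9, 2, 2 and 4 of them, in that order, against 20.9% of all probe sets tested. In the elongation list 10 of 43 reached it. In the list of assembly factors and enzymes of the C-terminal domain 5 of 36 did. The smallest p in the general factors were in Gtf2h4 (0.97 ± 0.23, limma adjusted p = 0.0696) and Ccnh (0.68 ± 0.20, 0.105), both parts of TFIIH, the factor that opens the promoter. The other tested probe sets of these genes lay nearer 0, at 0.18 and -0.10 for Gtf2h4 and 0.39 and 0.06 for Ccnh, and that of Ercc3, also of TFIIH, at -0.69 (adjusted p = 0.118). In the factors of RNA polymerases I and III they were in Gtf3c1 (-0.63 ± 0.24, 0.183) and Bdp1 (-0.44 ± 0.19, 0.239). Neither of the interchangeable Mediator kinases passed, with Cdk19 at 167 ± 7.77 against 84.4 ± 15 (0.88 ± 0.20, 0.0665) and Cdk8 at 153 ± 89.7 against 271 ± 44 (SD, n = 3; -0.88 ± 0.35, 0.202), where the Cdk8 groups overlapped. Another Cdk19 probe set, the brighter one, also overlapped (0.15). Nelfb, of the complex that holds paused polymerase, changed by -0.85 ± 0.21 (adjusted p = 0.0735), and the Integrator subunits Ints1 and Ints5 by -0.91 ± 0.25 (0.0919) and -0.81 ± 0.27 (0.145). Another tested Ints1 probe set lay the other way (0.27, limma adjusted p = 0.547), and a brighter one of Ints5 lay nearer 0 (-0.34, 0.353).

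The number of members that passed rested on knockout Ko1. Without it 6 of the 80 rose and 10 fell, the pair of Polr2a and Polr2e included. Of all probe sets tested, 11.9% then rose and 11.3% fell, so the members' 7.5% and 12.5% are again near the background. Those higher were Polr2e 1451093_at (2.03), Polr2d (0.81), Polr2g (0.79), Polr2f (0.77), Polr2j (0.66) and Polr1d 1451120_at (0.57), with limma adjusted p from 0.00228 to 0.0435. Those lower were Polr2a, Polr1d 1448287_at (-1.35) and 1447320_x_at (-1.24), Polr3f 1439075_at (-1.19), Med7 (-1.01), Polr2i (-0.92), Med28 1448374_at (-0.86), Polr3e 1429456_a_at (-0.79), Polr2m (-0.74) and Med16 (-0.70). Of these 16, 8 are among the 13 tested probe sets of RNA polymerase II, 5 higher and 3 lower, where the array had 11.9% and 11.3%. Polr2e 1451093_at, 1 of the 5, had passed the filter on level only through the knockout arrays. Without any single one of the other 5 arrays, at most 1 member passed.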

How the data were processed

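Per the submitters' processing notes the deposited values are signal intensities from GCOS, the Affymetrix software; the sources used here do not give its version, algorithm or detection calls. Their trimmed mean was 100 on each array, and this scaling was kept. RNA was extracted with Trizol and RNeasy and labelled by the one-cycle method, per the labels' protocols. Intensities were transformed as log2(signal + 16), which understates changes of dim probe sets. Without the 64 control probe sets, the 22518 above the median level were fitted with limma 3.58.1 in R 4.3.3 (1 term for group, trended eBayes, two-sided, Benjamini-Hochberg over all). The procedure was also run on simulated data with independent noise for each probe set. Such data lack the array-wide differences described above, so that run does not test the calls made here. Genes came from platform annotation (34945 probe sets with 1 symbol, 932 with several, 9160 with none).

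Named were members past the threshold, the 3 of each complex with the smallest p, 2 per pathway list and Tyrobp; others are given as values and were picked after their values were seen. The members and lists were chosen with earlier results of these data known. The 6 pathway lists covered general factors of RNA polymerase II, factors of RNA polymerases I and III, pausing and elongation, Mediator kinases and paralogs, assembly and C-terminal domain enzymes, and Integrator. Alternatives changed scaling, added value, filter, variance model, arrays used and probe sets per gene. The number of arrays limits the precision.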

Additional observations from a re-analysis of the deposited data

How the results depend on the processing

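With 3 arrays a group, adjusted p near 0.05 turned on single arrays. No member rose (count 0) under quantile normalization, median centring, a floor of 1, 64 added, no filter, no trend, robust estimation or omission of knockout 67 and 68 together, nor with 75% removed or 1 value per gene (brightest or mean), fits that did not hold the Polr2e probe set on its own. With array weights, and without knockout Ko1 and heterozygous 81, 6 rose and 10 fell (over the array 2468 and 2318, and 2285 and 2193); without knockout 67 and 68 together 2 fell (Polr2a and Polr1a; over the array 240 rose and 375 fell), in a fit that assumes the lone knockout array varies like the other group. Leaving out 1 array gave 0 to 6 higher and 0 to 10 lower, and 0 to 33 of the pathway probe sets, against 1, 1 and 3 with all arrays. The pathway count was 5 with median centring, 1 with 75% removed or 1 value per gene, 33 with array weights and 26 without knockout Ko1 and heterozygous 81. The members' median was -0.43 with centring (all probe sets -0.40), 0.10 with no filter (all 0.16), -0.11 with array weights (all 0.021) and 0.095 without knockout 67 and 68 (all 0.008), against an SD between arrays of 0.068. Tyrobp did not pass with a floor of 1 (-3.02, limma adjusted p = 0.104) or, at -1.68, with no filter (0.0952), no trend (0.0505), the brightest (0.0548) or the mean probe set (0.0518); leaving out 1 array gave -1.94 to -1.38, and it passed only where that array was knockout Ko1. Sign turned for the bright Polr2e probe set with quantile normalization (0.047), without knockout 67 and 68 (0.528) and as a gene mean (0.808), and leaving out 1 array gave -0.36 to 0.14; for Polr1d 1447320_x_at without knockout 67 and 68 (0.218); and for Polr3f 1439075_at there (0.002) and as a gene mean (0.069). Over all probe sets, 280 rose and 165 fell; quantile normalization gave 75 and 54, centring 100 and 481, a floor of 1 gave 202 and 132, no filter 63 and 61, and no trend 123 and 57. With 75% removed they were 168 and 186. The cause of these changes was not tested. No paired analysis was possible because the groups share no replicate numbers.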
